A study of Mus musculus with 12 samples.

Results

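Transcripts of 10 genes of protein folding in the endoplasmic reticulum (ER) and of the unfolded protein response were followed in mouse splenic dendritic cells. They were Hspa5, Hsp90b1, Calr, Canx, Pdia3, Pdia4, Pdia6, Xbp1, Atf4 and Ddit3. Every probe set that the platform annotation gives to 1 of these symbols alone was taken, which made 13 of the 12422 probe sets that were not controls. Canx had 2 probe sets, Pdia6 had 3 and the other genes had 1 each. The cells were sorted from mouse spleen for high CD11c and divided into a CD8+ subset, a double-negative (DN) subset that carried neither CD8 nor CD4, and a CD4+ subset. RNA came from cells held for 2 h at 37 °C in culture medium (cultured) or from cells taken at once after isolation (fresh). Each of the 6 combinations was measured on 2 arrays, 12 in all, named replicate 1 and replicate 2 after the experiment number in the labels. The labels give no strain, age or sex of the mice and do not say whether replicates came from separate mice, so the spread between replicates may be technical.

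The ER is where secreted and membrane proteins fold, and dendritic cells send large amounts of surface and secreted protein through it, among them the MHC molecules that present antigen. Chaperones hold nascent chains, lectin chaperones bind chains that carry sugars, and protein disulfide isomerases form and exchange disulfide bonds. When unfolded chains build up, the sensors IRE1, PERK and ATF6 start the unfolded protein response: IRE1 splices Xbp1 mRNA into the message for an active transcription factor, PERK favours translation of ATF4, which can induce CHOP, the product of Ddit3, and the cleaved ATF6 enters the nucleus. The targets of these factors include the chaperones and isomerases themselves. Conventional dendritic cells, the CD8+ lineage above all, are known from work in mice for constitutive activity of the IRE1 and XBP1 branch.

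Cleaved ATF6, with the CCAAT-binding factor NF-Y, is known to act on ER chaperone promoters through the ER stress response element (ERSE), which is CCAAT, then 9 free bases, then CCACG. Promoter windows were taken from RefSeq (build GRCm38.p6), from 250 bases before to 50 bases after each start, and all 10 genes were matched by symbol. The ERSE, searched on both strands, was found in the windows of 5 of the 10 genes, against 39 of all 32851 windows, or 0.119%. Counted by gene it was found in 37 of 27025, or 0.137%, and both totals include the genes described here. The element was chosen because it is known from ER chaperone promoters, so its share in these genes is not a test. The 6 matches are shown because they fall in the chaperone genes whose levels are described here. Each is written 5′ to 3′ along the strand of the motif, the capitals mark the fixed letters at either end, and positions count from the start of transcription as base 0.
Hspa5, -65 to -47, forward strand of the gene, chr2:34772025-34772043: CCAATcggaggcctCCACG
Hsp90b1, -212 to -194, forward strand of the gene, chr10:86705638-86705656: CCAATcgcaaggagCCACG
Hsp90b1, -107 to -89, reverse strand of the gene, chr10:86705533-86705551: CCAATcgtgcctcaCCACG
Calr, -162 to -144, reverse strand of the gene, chr8:84847075-84847093: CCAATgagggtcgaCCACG
Canx, -145 to -127, forward strand of the gene, chr11:50325800-50325818: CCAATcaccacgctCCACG
Pdia6, -98 to -80, forward strand of the gene, chr12:17266491-17266509: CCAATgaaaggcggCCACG
Hspa5, Canx and Pdia6 each held a single match on the strand of the gene, Hsp90b1 held a match on each strand, and Calr held a match on the opposite strand. Pdia3, Pdia4, Xbp1, Atf4 and Ddit3 held none in this window. The shorter element ERSE-II, which is ATTGG, then 1 free base, then CCACG, was also searched on both strands and was found in 0 of the 10 genes and in 0.0365% of all windows. The CCAAT box, which every ERSE contains, was found in 9 of the 10 genes and in 37.4% of all windows. A match of letters is a description of the window and not a measured site.

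The 250 bases before the start are shown for the 3 genes that were called in the comparison of cultured with fresh cells. Those of Hspa5 and Canx hold the element, in capitals, and that of Xbp1 does not.
Hspa5, chr2:34771840-34772089 (+): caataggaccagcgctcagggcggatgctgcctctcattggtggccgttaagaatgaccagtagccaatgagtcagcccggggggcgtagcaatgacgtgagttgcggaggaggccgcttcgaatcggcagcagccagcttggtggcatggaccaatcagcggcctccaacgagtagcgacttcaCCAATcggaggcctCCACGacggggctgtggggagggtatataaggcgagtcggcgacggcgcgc
Canx, chr11:50325674-50325923 (−): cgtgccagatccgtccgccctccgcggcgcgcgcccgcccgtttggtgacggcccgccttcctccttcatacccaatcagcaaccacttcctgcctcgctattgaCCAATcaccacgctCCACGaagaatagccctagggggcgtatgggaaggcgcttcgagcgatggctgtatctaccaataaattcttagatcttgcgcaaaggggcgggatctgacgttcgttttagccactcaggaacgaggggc
Xbp1, chr11:5520391-5520640 (+): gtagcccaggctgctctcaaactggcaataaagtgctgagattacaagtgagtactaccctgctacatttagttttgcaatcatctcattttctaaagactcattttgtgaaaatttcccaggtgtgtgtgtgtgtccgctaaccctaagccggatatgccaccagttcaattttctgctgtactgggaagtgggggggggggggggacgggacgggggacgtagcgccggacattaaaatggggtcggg
The Hspa5 element lies close to the start, and that of Canx lies farther upstream.

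**Figure D1:**
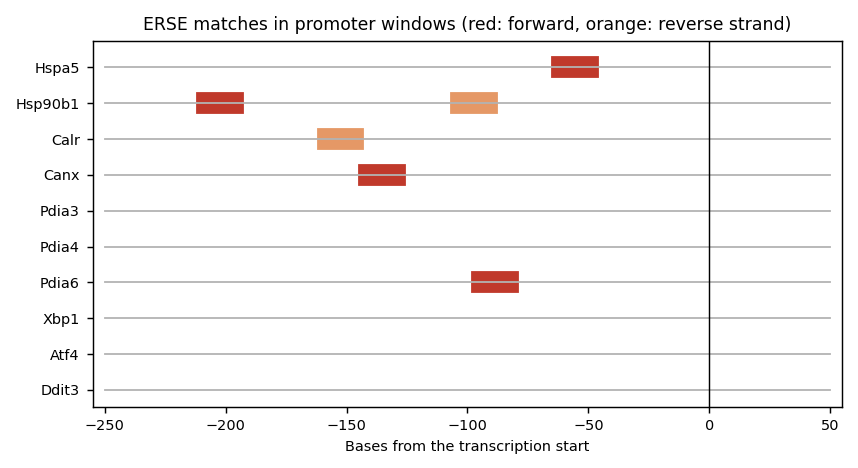
ERSE matches in the promoter windows of the 10 genes, with distance from the start of transcription in bases on the x axis and 1 gene per line. Red boxes are matches on the strand of the gene and orange boxes matches on the opposite strand: 5 genes carry 6 matches, all upstream of the start, and 5 genes carry none.

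The intensities are the authors' scaled Average Difference values, in which a value below 0 means that mismatch probes outshone the matching ones. A detection floor of 91.37 was set from the spread of the negative values, and the 6159 probe sets above it on at least 2 arrays were tested. Differences are given on a generalised log2 scale, which stays defined below 0. It understates changes between low positive values, but readings below 0 lower it further and can enlarge a difference. The culture effect of Pdia6 94208_at in CD4+ cells was -1.356 on this scale and -0.312 with low values set to the floor. An adjusted p under 0.05 in the limma fit over all 6159 probe sets is a call. The Gapdh controls at the 3′ and 5′ ends of the transcript, whose ratio reflects RNA integrity, set 3 arrays apart. The 3′/5′ ratio was 1.97 (cultured CD4+, replicate 1), 1.34 (cultured DN, replicate 1) and 2.55 (fresh CD8+, replicate 1), against 0.890 to 1.04 for the remaining 9. The actin control did not part them in this way: its 3′/5′ ratio was 1.16, 0.919 and 0.908 on these arrays in the same order, and its highest value, 1.28, stood on replicate 2 of cultured CD4+ cells. The spread of the negative values was also largest, at 108, on replicate 1 of cultured CD4+ cells, and the values without the 3 arrays are given for each call in the members and, below, for the calls of the other lists that ended without them. The label that calls replicate 1 of fresh CD8+ cells CD4 positive goes against its title, and its Cd8a intensity of 1210.4, beside 92.0 for Cd4, goes with the title. Cd8a was above the floor on the 4 CD8+ arrays and on none of the other 8, and Itgax, which encodes CD11c, was above it on all 12.

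Of the 13 probe sets, 11 were tested. Those of Hspa5, Hsp90b1, Pdia3, Xbp1 and Atf4 were above the floor on all 12 arrays. Calr, which encodes the soluble lectin chaperone calreticulin, lay between -13.6 and 26.8 on the 12 arrays and was above the floor on 0 of them, so this probe set gives no level for Calr in any group. The Pdia6 probe set 94207_at was above the floor on 1 array, at 94.7 on replicate 2 of cultured CD8+ cells, while the other Pdia6 probe sets reached 1281.4 and 1377.6. Ddit3 was above the floor on 3 of 12 arrays, Canx 160180_at on 7, Canx 94886_at on 9 and Pdia4 on 10. The values of the tested probe sets on each array are drawn in the plot of intensities by array.

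**Figure D2:**
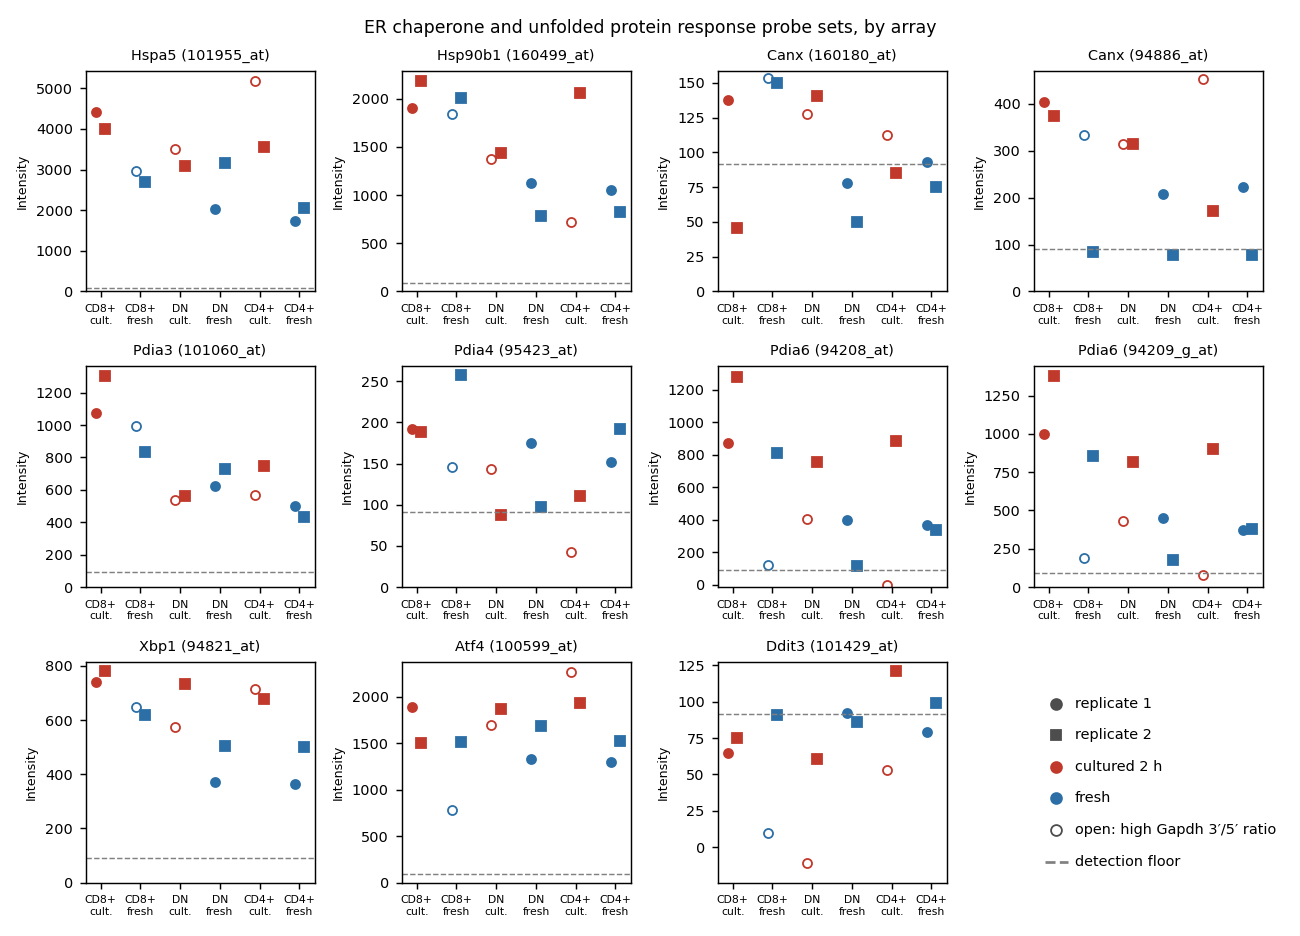
Intensity of each of the 11 tested probe sets on each of the 12 arrays (y axes, linear, in the authors' scaled units; x axes, the 6 groups). Circles are replicate 1, squares replicate 2, red cultured, blue fresh, open symbols the 3 arrays of high Gapdh ratio, and the dashed line the floor of 91.37: Hspa5 and Xbp1 lie higher in cultured cells of each subset on average, and the Pdia6 probe sets part most between replicates.

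Culture was compared with the fresh state as the mean over the 3 subsets, which asks whether 2 h in medium changed the ER folding genes. Hspa5, Xbp1 and 1 of the 2 Canx probe sets were called, all higher in cultured cells. That is 3 of 11 tested probe sets, against 39.3% of all tested probe sets called in this comparison, 17% higher and 22.3% lower. The count lies below the share called in either direction and above the share called higher. The median difference over the 9 measured genes was 0.48 (log2), against -0.06 over all 4735 genes tested, where a gene with several probe sets was represented by the brightest.

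Hspa5 encodes BiP, the ER chaperone of the Hsp70 family that also holds the stress sensors inactive. Its intensity was 4412.7 and 3991.5 in cultured CD8+ cells and 2977.1 and 2694.7 in fresh CD8+ cells. In DN cells it was 3513.8 and 3083.9 after culture and 2024.1 and 3159.6 when fresh. In CD4+ cells it was 5181.4 and 3547.6 after culture and 1741.1 and 2051.6 when fresh. The cultured and fresh arrays were apart in CD8+ and in CD4+ cells and overlapped in DN cells, where fresh replicate 2 was as high as the cultured arrays. Hspa5 was higher in cultured cells by 0.71 ± 0.16 (log2 ± SE, 1.64-fold, adjusted p = 0.00585), and higher in 5 of 6 pairs of the same subset and replicate number. The difference stayed called without any 1 array (0.603 to 0.817) and with the 3 arrays of high Gapdh ratio left out (0.611, adjusted p = 0.0154). Quantile normalization between arrays ended the call, at 0.371 with adjusted p = 0.065. In bulk RNA, more RNA of a gene per cell and more cells that carry it cannot be told apart, here and in what follows.

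By subset, the mean Hspa5 intensity was 4202 ± 298 in cultured and 2836 ± 199.7 in fresh CD8+ cells, 3299 ± 304 in cultured and 2592 ± 803 in fresh DN cells, and 4365 ± 1155 in cultured and 1896 ± 219.6 in fresh CD4+ cells (SD, n = 2 each). The culture effect was called in CD4+ cells, at 1.18 ± 0.28 (adjusted p = 0.0162), where Hspa5 was 1 of 11 tested probe sets called against 18.4% of all. It was 0.57 ± 0.28 in CD8+ cells (adjusted p = 0.253) and 0.38 ± 0.28 in DN cells (adjusted p = 0.413), and 0 of 11 probe sets were called in either, against 8.13% and 9.9% of all. The call in CD4+ cells ended without fresh replicate 1 (adjusted p = 0.11), fresh replicate 2 (0.0724) or cultured replicate 1 (0.1), with the fit of these 2 groups alone (0.0922), and when the 3 arrays of high Gapdh ratio were left out (0.0543). The subsets were not shown to differ: the effect in DN cells minus that in CD4+ cells was -0.80 ± 0.40 (adjusted p = 0.999), and that in CD8+ cells minus that in CD4+ cells was -0.61 ± 0.40 (adjusted p = 0.666). None of the 11 probe sets, and 0% of all tested, was called in any of the 3 differences in culture effect between subsets. At an unadjusted p under 0.05 these comparisons held 525 (CD8+ minus CD4+), 250 (CD8+ minus DN) and 127 (DN minus CD4+) of the 6159 probe sets.

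Hsp90b1 encodes GRP94, the Hsp90 chaperone of the ER, whose clients include Toll-like receptors and integrins. Its intensity was 1908.0 and 2185.8 in cultured CD8+ cells and 1837.1 and 2011.0 in fresh CD8+ cells. In DN cells it was 1377.1 and 1438.6 after culture and 1125.6 and 779.6 when fresh. In CD4+ cells it was 719.9 and 2054.9 after culture and 1047.6 and 819.5 when fresh. The DN arrays were apart, the CD8+ arrays overlapped, and the cultured CD4+ replicates lay on either side of the fresh ones. Over the subsets Hsp90b1 differed by 0.36 ± 0.24 (adjusted p = 0.248), and was higher in 5 of 6 pairs. Without each array in turn this difference ran from 0.104 to 0.608, the highest without replicate 1 of cultured CD4+ cells. It was 0.596 when all 3 arrays of high Gapdh ratio were left out. In CD4+ cells alone the culture effect was 0.39 ± 0.41. It was 1.148 without cultured replicate 1 and -0.364 without cultured replicate 2, so its direction there depends on which of these arrays is kept.

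Canx encodes calnexin, the membrane-bound lectin chaperone that binds glycoproteins, MHC class I heavy chains among them. Probe set 94886_at read 403.3 and 372.7 in cultured CD8+ cells and 333.9 and 84.1 in fresh CD8+ cells. It read 313.8 and 314.0 in cultured DN cells and 208.6 and 78.5 in fresh DN cells. In CD4+ cells it read 451.6 and 171.0 after culture and 223.0 and 78.6 when fresh. The cultured array was above its fresh partner in 6 of 6 pairs, and replicate 2 of each fresh subset was below the floor. The difference was 1.14 ± 0.41 (adjusted p = 0.0443), and 1.23 with the 3 arrays of high Gapdh ratio left out (adjusted p = 0.0263). A fit that blocked on the replicate number kept the call (adjusted p = 0.00553). The call ended with a smaller offset of the log scale (adjusted p = 0.0504), with a hard floor (0.0515) and with all 12422 probe sets tested (0.0745). It also ended without any 1 of 8 arrays. These were replicate 1 (adjusted p = 0.0963) or 2 (0.0798) of cultured CD8+ cells, replicate 1 (0.0878) or 2 (0.0801) of cultured DN cells, replicate 1 of cultured CD4+ cells (0.1), and replicate 2 of fresh CD8+ (0.116), DN (0.13) or CD4+ cells (0.123).

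The other Canx probe set, 160180_at, did not show the same difference. It lay between 45.4 and 140.7 in cultured cells and between 50.3 and 153.4 in fresh cells, close to the floor in both states. Its mean culture effect was 0.12 ± 0.27 (adjusted p = 0.743), and -0.109 without replicate 1 of cultured CD8+ cells, so the Canx probe sets disagree and the call rests on 1 of them.

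The 3 protein disulfide isomerases of the list act at different steps: Pdia3 (ERp57) works with the lectin chaperones and in the MHC class I loading complex, and Pdia4 (ERp72) and Pdia6 (P5) act on other substrates and bind BiP or its clients. None was called. Pdia3 lay between 537.8 and 1302.7 in cultured cells and between 433.1 and 995.6 in fresh cells, with a difference of 0.19 ± 0.15 (adjusted p = 0.334) and an interval of -0.14 to 0.52. Pdia4 lay between 42.2 and 191.9 in cultured cells and between 97.0 and 257.5 in fresh cells, with a difference of -0.47 ± 0.28 (adjusted p = 0.201). Pdia4 was the tested probe set with the lowest mean culture effect, and its cultured array was above the fresh one in 1 of 6 pairs.

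The 2 tested Pdia6 probe sets, 94208_at and 94209_g_at, come from the same source sequence and followed each other over the 12 arrays (r = 0.981), so they count as a single view of the gene. For 94209_g_at the intensity was 998.8 and 1377.6 in cultured CD8+ cells and 190.8 and 858.4 in fresh CD8+ cells. It was 433.6 and 817.3 in cultured DN cells and 449.9 and 178.4 in fresh DN cells. It was 76.3 and 903.9 in cultured CD4+ cells and 375.1 and 380.9 in fresh CD4+ cells. Replicates lay far apart in fresh CD8+ and in cultured CD4+ cells, and the lowest value stood on replicate 1 of cultured CD4+ cells, where 94208_at read -2.4. The mean culture effect was 0.70 ± 0.56 for 94209_g_at (adjusted p = 0.328) and 0.56 ± 0.79 for 94208_at (adjusted p = 0.586). Without replicate 1 of cultured CD4+ cells the values were 1.28 (adjusted p = 0.0275) and 1.46 (adjusted p = 0.0357), and leaving out all 3 arrays of high Gapdh ratio gave 1.07 (adjusted p = 0.0107) and 1.16 (adjusted p = 0.0316). In CD4+ cells alone, leaving out cultured replicate 1 turned the direction, to 1.25 for 94209_g_at and 1.32 for 94208_at. Leaving out cultured replicate 2 there gave -2.199 (adjusted p = 0.0495) and -4.034 (adjusted p = 0.0105), and it took the mean culture effect of 94208_at to -0.329 (adjusted p = 0.586). The direction of Pdia6 in CD4+ cells thus depends on which of these arrays is kept.

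Of the 3 transcription factors, Xbp1 was called. XBP1 is the factor made after IRE1 splices its mRNA; which of its spliced forms the probe set detects was not examined. Xbp1 read 739.7 and 781.3 in cultured CD8+ cells and 648.0 and 617.6 in fresh CD8+ cells. It read 574.9 and 732.4 in cultured DN cells and 373.0 and 503.9 in fresh DN cells. It read 714.8 and 679.2 in cultured CD4+ cells and 363.8 and 501.7 in fresh CD4+ cells. Within each subset both cultured arrays were above both fresh arrays. The difference was 0.52 ± 0.16 (1.43-fold, adjusted p = 0.0263), 0.505 under quantile normalization (adjusted p = 0.0294) and 0.573 with the 3 arrays of high Gapdh ratio left out (adjusted p = 0.0272). Its direction held without each array in turn (0.439 to 0.592), and its call ended without replicate 1 (adjusted p = 0.0569) or 2 (0.0616) of cultured CD8+ cells, replicate 2 of cultured DN cells (0.0675), replicate 1 of fresh DN cells (0.0723) or replicate 1 of fresh CD4+ cells (0.0893). No single subset reached a call, at 0.26 ± 0.28 in CD8+ cells (adjusted p = 0.622), 0.58 ± 0.28 in DN cells (0.21) and 0.70 ± 0.28 in CD4+ cells (0.0978).

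Atf4 encodes the factor that PERK and the other kinases of the integrated stress response favour at translation, so its mRNA is only a partial view of it. Atf4 read 1886.9 and 1497.7 in cultured CD8+ cells and 783.3 and 1510.6 in fresh CD8+ cells. It read 1691.4 and 1867.8 in cultured DN cells and 1333.5 and 1689.3 in fresh DN cells. It read 2267.4 and 1928.7 in cultured CD4+ cells and 1300.2 and 1526.0 in fresh CD4+ cells. Fresh and cultured arrays overlapped in CD8+ cells and were apart in DN cells, narrowly, and in CD4+ cells. The difference was 0.48 ± 0.18 (adjusted p = 0.0573), and a fit that blocked on the replicate number gave an adjusted p of 0.045. Without replicate 2 of fresh CD8+ cells it was 0.638 (adjusted p = 0.00861), and without replicate 2 of cultured CD4+ cells 0.519 (adjusted p = 0.0472). Without the 3 arrays of high Gapdh ratio, of which replicate 1 of fresh CD8+ cells holds the lowest Atf4 value, it was 0.308 (adjusted p = 0.144). Ddit3, which encodes the proapoptotic factor CHOP, lay between -10.9 and 120.8 in cultured cells and between 10 and 98.7 in fresh cells, with a difference of -0.33 ± 0.42 (adjusted p = 0.55), and at this signal a change was not detectable.

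Without the 3 arrays of high Gapdh ratio, 6 of the 11 probe sets were called, all higher in cultured cells, against 18.9% of all tested probe sets called higher under that setting. They were those of Hspa5, Hsp90b1, Canx (94886_at), Xbp1 and the 2 of Pdia6, which stand for 5 of the 9 measured genes. With all 12 arrays it was 3 of 11. The arrays left out were all replicate 1, so only replicate 2 stood for cultured CD4+, cultured DN and fresh CD8+ cells. The replicate numbers were then unbalanced between cultured and fresh cells, and the counts come from unlike sets of arrays. The intervals of each difference are drawn in the plot of culture effects.

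**Figure D3:**
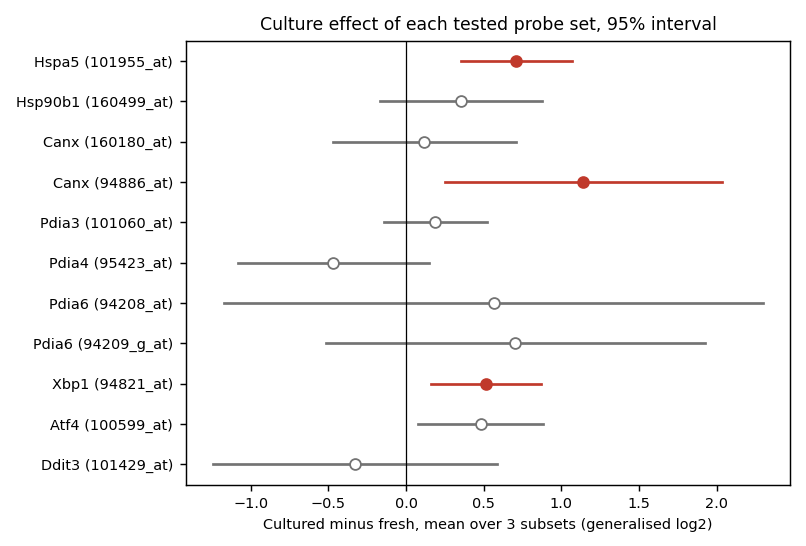
Mean culture effect of each tested probe set over the 3 subsets (x axis, cultured minus fresh, generalised log2) with its 95% interval, filled red where the adjusted p is under 0.05. Hspa5 (0.71), Canx 94886_at (1.14) and Xbp1 (0.52) are filled, and the intervals of both Pdia6 probe sets are the widest.

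The subsets were then compared within each state, which asks whether the dendritic cell lineages differ in these genes. None of the 11 probe sets was called between subsets with 12 arrays. The background in fresh cells was 1.98% for CD8+ minus CD4+, 1.43% for CD8+ minus DN and 0% for DN minus CD4+, and in cultured cells 2.29%, 1.3% and 0%. DN and CD4+ cells gave 0 calls over all probe sets in limma, with 81 at an unadjusted p under 0.05 when fresh and 235 when cultured. Even Cd4, by which these subsets were sorted, was not called between them. It read 617.3 and 612.8 in fresh CD4+ and 82.7 and 77.6 in fresh DN cells. The lack of calls thus does not show that these subsets are alike.

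Pdia3 was the member with the clearest order of subsets. It read 1072.4 and 1302.7 in cultured CD8+ cells, 537.8 and 562.9 in cultured DN cells and 568.4 and 748.7 in cultured CD4+ cells. In the fresh state it read 995.6 and 830.6 in CD8+ cells, 623.2 and 730.0 in DN cells and 501.8 and 433.1 in CD4+ cells. All 4 CD8+ arrays were above all 8 others, an order that 110 of the 6159 tested probe sets, or 1.79%, had. Group means were 1188 ± 163 and 913 ± 117 in cultured and fresh CD8+ cells, 550.4 ± 17.7 and 677 ± 75.5 in DN cells, and 659 ± 127 and 467 ± 48.6 in CD4+ cells (SD, n = 2 each). Each comparison within a state missed the threshold: fresh CD8+ minus CD4+ was 0.96 ± 0.26 (adjusted p = 0.104), fresh CD8+ minus DN 0.43 ± 0.26 (0.714), cultured CD8+ minus CD4+ 0.86 ± 0.26 (0.14) and cultured CD8+ minus DN 1.10 ± 0.26 (0.0792). The last passed without replicate 1 (adjusted p = 0.0438) or replicate 2 (0.0449) of cultured CD4+ cells, arrays that enter it through the shared spread alone.

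A further comparison, the 4 CD8+ arrays against the 8 DN and CD4+ arrays, was chosen after the values of Pdia3 and Hsp90b1 had been seen, and its p-values carry that choice. Pdia3 differed by 0.84 ± 0.16 (1.79-fold, adjusted p = 0.00933), 1 of 11 probe sets called against 6.22% of all. It was 0.767 to 0.907 without each array in turn, and the call ended without replicate 2 of cultured CD8+ cells (adjusted p = 0.0711). It was 0.714 with the 3 arrays of high Gapdh ratio left out (adjusted p = 0.0247). Hsp90b1 differed by the same size, 0.84 ± 0.25 (adjusted p = 0.0802), with 1837.1 to 2185.8 on the CD8+ arrays and 719.9 to 2054.9 on the others. Replicate 2 of cultured CD4+ cells, at 2054.9, was the only other array within the CD8+ range. Hsp90b1 passed without that array (1.03, adjusted p = 0.00297), without replicate 1 of cultured CD4+ cells (0.654, adjusted p = 0.0341) and with all 3 arrays of high Gapdh ratio left out (0.679, adjusted p = 0.0393). Within cultured cells, CD8+ minus CD4+ for Hsp90b1 was 0.75 ± 0.41 (adjusted p = 0.418), 1.503 without replicate 2 (adjusted p = 0.0162) and -0.009 without replicate 1 of cultured CD4+ cells, so either array of that pair decides its value. For Hspa5 the same contrast of CD8+ with the other arrays was 0.27 ± 0.17 (adjusted p = 0.501), for Xbp1 0.37 ± 0.17 (0.308) and for Pdia4 0.69 ± 0.30 (0.254).

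**Figure D4:**
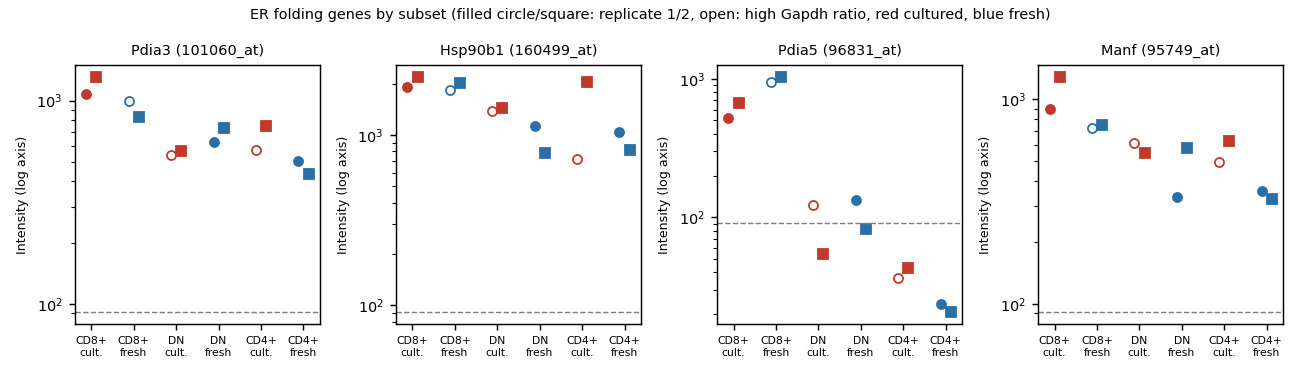
Intensity (log y axes) of Pdia3, Hsp90b1, Pdia5 and Manf on the 12 arrays by group, symbols and colours as in the plot of intensities by array. The CD8+ arrays read 830.6 to 1302.7 for Pdia3 and 522 to 1028.4 for Pdia5, above every other array for both genes, and the dashed line is the floor.

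Markers of other cells that a spleen sort can hold were summed beside these results. Of 5 plasma cell genes other than Xbp1, 4 were above the floor on some array, and Tnfrsf17 was below it in every group. Their summed intensity, most of it from Ighm, was 1104 to 3335 in cultured CD8+, 799 to 1892 in cultured DN and 912 to 2288 in cultured CD4+ cells, against 3036 to 4160, 1402 to 2263 and 3167 to 4042 in the same fresh subsets. The cultured and fresh ranges overlapped in CD8+ and DN cells, and in CD4+ cells the cultured arrays were lower. Prdm1 went the other way: it was below the floor on both arrays of every fresh subset, but not on both arrays of any cultured subset. The T cell genes Cd2, Cd247, Cd28, Cd3d, Cd3e and Cd3g were below the floor in every group, 6 of the 8 T cell genes measured. Summed levels of 10 dendritic cell genes were 45917 to 63632 in cultured and 21273 to 43772 in fresh cells, so the sum moved with culture as well. Not every gene followed it. Itgax was lower on the cultured arrays of each subset. Cd8a read 890.9 and 679.4 in cultured and 1210.4 and 1675.2 in fresh CD8+ cells. Cd4 read 270.9 and 112.2 in cultured and 617.3 and 612.8 in fresh CD4+ cells. The other genes of this list were not compared singly. Summed levels of 5 NK cell genes, 2 of them above the floor on some array, were 148 to 446 on the CD8+ arrays, 720 to 1149 on DN and 520 to 728 on CD4+ arrays. Red cell genes, 1 of 4 above the floor on some array, summed to 205.6 to 2540.1 in cultured and 206.1 to 896.3 in fresh cells. The highest of these sums stood in cultured CD4+ cells. Neutrophil genes, 3 of 7 above the floor on some array, summed to 156.3 to 713.7 in cultured and 91.4 to 380 in fresh cells. Of 11 macrophage genes, 8 were above the floor on some array, and Marco, Cd5l and Mrc1 were below it in every group. Their sums were 3864 to 3903 in cultured CD8+, 1967 to 2078 in cultured DN and 1914 to 2148 in cultured CD4+ cells, against 1642 to 2661, 1399 to 2146 and 3265 to 3455 in the same fresh subsets, so cultured cells were higher in the CD8+ and lower in the CD4+ subset. Of 9 B cell genes, 8 were above the floor on some array, and Cr2 was below it in every group. Their sums were 873 to 1309.8, 968 to 1764 and 984 to 1845 in cultured CD8+, DN and CD4+ cells, against 792 to 1563, 1451 to 1472.5 and 1414 to 1537 in fresh ones, with overlap in each subset. The part of these cells in the results was not tested.

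The 5 further gene lists set the members among their pathway. The other ER chaperones and folding enzymes held 26 genes on the array and 21 tested, of which 2 were called higher and 3 lower in cultured cells, against 40.4% of all tested genes called, 16.1% higher and 24.3% lower. Their median was -0.16, below that of the 9 tested among the 10 genes described above (0.48) and near that of all genes. Dnajb11, a BiP cochaperone, was higher by 0.59 ± 0.18 (adjusted p = 0.0228), with 238.9 to 368.7 in cultured and 169.9 to 237.7 in fresh cells, which do not overlap. Manf, a secreted ER stress protein that binds BiP, was higher by 0.54 ± 0.18 (adjusted p = 0.0366). Erp29, an ER folding factor, was lower, at -2.01 ± 0.18 (adjusted p = 1.66e-05), with 137.9 to 722.6 in cultured and 1179.5 to 1501.5 in fresh cells, although a second tested probe set of Erp29 read 0.43 (adjusted p = 0.355). Txndc12, an ER thioredoxin, was below the floor in all 6 cultured arrays and at least 1.59-fold lower (adjusted p = 0.00198), and Dnajc3, a BiP cochaperone that also inhibits PERK, was the remaining one called lower (-0.53 ± 0.19, adjusted p = 0.0497).

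ER-associated degradation, which returns misfolded chains to the cytosol, had 2 of 11 tested genes higher and 0 lower. Vcp, the ATPase that extracts the chains, was higher by 0.73 ± 0.13 (adjusted p = 0.00174), with 1679.3 to 2587.1 in cultured and 1115.9 to 1445.5 in fresh cells, while another Vcp probe set read 0.52 (adjusted p = 0.357). Sel1l, the partner of the ubiquitin ligase HRD1, was higher by 0.84 ± 0.21 (adjusted p = 0.00844). Of 9 tested stress sensors and transducers, 2 were higher and 2 lower. Traf2 (0.59 ± 0.16, adjusted p = 0.0144) and Map3k5 (0.88 ± 0.30, adjusted p = 0.0366), which link IRE1 to JNK signalling, were higher. Eif2ak4, the amino acid sensor GCN2, was below the floor in all 6 cultured arrays and at least 2.04-fold lower (adjusted p = 0.00035), and Mbtps1, the protease that cleaves ATF6, was lower, at -0.92 ± 0.21 (adjusted p = 0.00646).

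Known targets of ATF4 and CHOP had 3 of 18 tested genes higher and 3 lower, with a median of -0.22. Slc3a2, the heavy chain of amino acid transporters, read 2054.3 to 3212.3 in cultured and 839.1 to 1318.6 in fresh cells and was higher by 1.40 ± 0.15 (adjusted p = 4.75e-05). Slc7a11, the cystine transporter chain that pairs with it, was called higher (adjusted p = 0.0253) with 2 of 6 cultured arrays above the floor and 0 of 6 fresh ones. Asns, asparagine synthetase, was the remaining higher one (0.90 ± 0.30, adjusted p = 0.0358). Ddit4, an inhibitor of mTORC1, was below the floor in all 6 cultured arrays and at least 4.31-fold lower as a mean over the subsets (adjusted p = 0.00024). Fresh arrays read 706.5 and 1132.4 in DN cells and 754.9 and 783 in CD4+ cells, but 60.3 and 159.4 in CD8+ cells. The size of the Ddit4 difference thus comes from the DN and CD4+ subsets, and the bound does not hold for CD8+ cells alone. Atf3, a stress-induced transcription factor read by a probe set of the family type, was lower, at -1.13 ± 0.20 (adjusted p = 0.00153). A second tested probe set of Atf3 read -0.71 and missed the threshold (adjusted p = 0.0507). Psat1, of serine synthesis, was lower as well, at -1.03 ± 0.33 (adjusted p = 0.0299). Genes of ER translocation and signal peptide processing had 0 of 21 higher and 3 lower: the oligosaccharyltransferase subunits Ddost (-1.29 ± 0.27, adjusted p = 0.00352) and Rpn2 (-0.60 ± 0.19, adjusted p = 0.0276), and Srp14 of the signal recognition particle (-0.65 ± 0.14, adjusted p = 0.0049). Ddost was below the floor on 5 of 6 cultured arrays and 0 of 6 fresh ones, so the size of its difference is poorly measured. A second tested probe set of Rpn2 read -0.63 and was not called (adjusted p = 0.208). With the replicate number as a block, 3 degradation genes were higher and 2 lower, Edem1 (adjusted p = 0.0201) joining the higher and Os9 (0.0207) and Ufd1 (0.0295) the lower ones. The block gave 1 higher (Sec11c, adjusted p = 0.0451) and 5 lower genes in the translocation list, where Spcs2 (0.0296) and Srp9 (0.027) joined the 3 above. It gave 4 and 4 for the ATF4 and CHOP targets, with Phgdh (0.0181) higher and Gars (0.0277) lower, 2 and 3 for the sensors, with Atf6b lower (0.0451), and 2 and 3 for the chaperones.

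**Figure D5:**
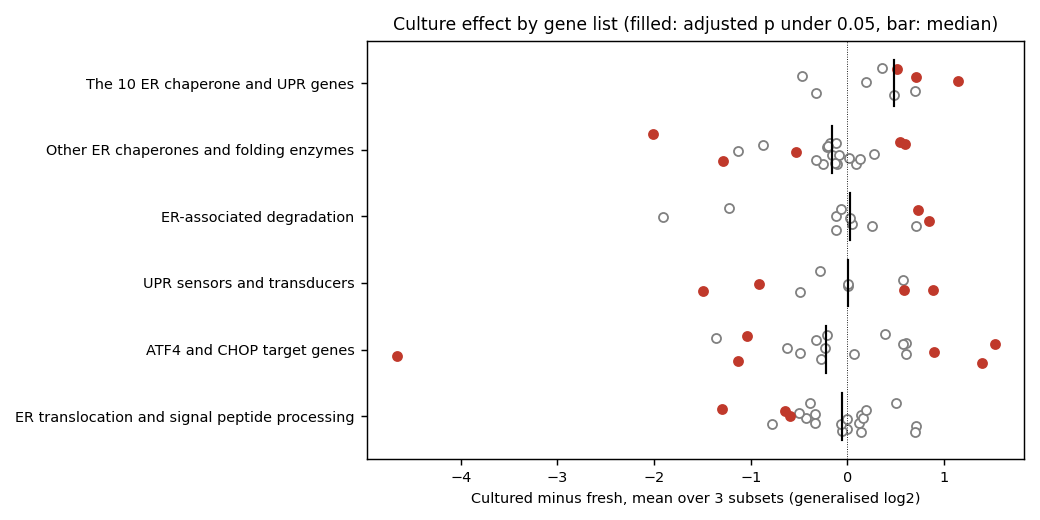
Mean culture effect (x axis, cultured minus fresh, generalised log2) of each tested gene in the 10 genes and 5 further lists, filled red where the adjusted p is under 0.05, with a bar at the median of each list. The median of the 9 tested among the 10 genes is 0.48, and the medians of the other lists lie between -0.22 and 0.02.

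With the 3 arrays of high Gapdh ratio left out, the lists gave 1 higher and 2 lower (chaperones), 3 and 2 (degradation), 2 and 4 (sensors), 4 and 3 (ATF4 and CHOP targets) and 0 and 2 (translocation), and the calls of Manf (adjusted p = 0.0506), Dnajc3 (0.0831), Asns (0.0737), Map3k5 (0.0972) and Rpn2 (0.104) ended. The other 15 culture calls named in these lists held. Between subsets, the chaperone list held Pdia5, another disulfide isomerase, with 522 to 1028.4 on the CD8+ arrays and 20.7 to 133.5 on the others. Pdia5 was at least 10.2-fold higher in fresh CD8+ than in fresh CD4+ cells (adjusted p = 0.000243) and at least 6.10-fold higher in cultured ones (adjusted p = 0.00143). Against DN cells it was higher by 3.17 ± 0.41 fresh (adjusted p = 0.00371) and 2.74 ± 0.41 cultured (adjusted p = 0.00945). Erp29 was higher in cultured CD8+ than in cultured CD4+ cells by 1.96 ± 0.31 (adjusted p = 0.0101), a difference its other probe set did not share (-0.73, adjusted p = 0.626). Ppib, an ER prolyl isomerase, was higher in the same comparison by 1.27 ± 0.28 (adjusted p = 0.0389). Man1b1, a mannosidase of the degradation list, was higher in fresh CD8+ than in fresh CD4+ cells by 1.45 ± 0.32 (adjusted p = 0.0483). Its call ended with the 3 arrays of high Gapdh ratio left out (1.12, adjusted p = 0.143), while those of Pdia5, of Erp29 (1.84, adjusted p = 0.00477) and of Ppib (1.204, adjusted p = 0.0382) held. In the comparison of CD8+ with the other arrays chosen after seeing values, 5 of the 21 chaperone genes were called, all higher, against 6.84% of all genes: Pdia5 (3.56), Creld2 (0.95), Manf (0.93), Erp44 (0.89) and Erp29 (0.74). The translocation list had 3 of 21 called, all higher: the oligosaccharyltransferase subunit Rpn1 (0.87, adjusted p = 0.0182), the translocon channel Sec61a1 (0.70, adjusted p = 0.0373) and the translocon-associated Ssr3 (0.82, adjusted p = 0.0464). The degradation list had 1 of 11, Man1b1 (0.81, adjusted p = 0.0339), and the sensors and the ATF4 and CHOP targets had 0 of 9 and 0 of 18. Without the 3 arrays the calls of Rpn1 (adjusted p = 0.0501), Sec61a1 (0.0757) and Man1b1 (0.0934) ended, and the 5 chaperone genes and Ssr3 held. The block added Rpn2 (0.0277) and Selenos (0.0422).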

How the data were processed

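RNA of 12 samples in 6 groups of 2 was measured on oligonucleotide arrays. Per the labels, the authors deposited Average Difference intensity values to which global scaling had been applied, and they were used without further normalization. The labels name no software.

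The table held 12488 probe sets. The 66 controls were left out. Of the other 12422, the platform annotation gave 1 symbol to 10833, several to 396 and none to 1193. Values x became log2((x + sqrt(x² + c²)) / 2) with c = 45.69, the array median of the negative values' root mean square, and the floor was 2 times c, 91.37. The 6159 probe sets above it on at least 2 arrays were tested with limma 3.58.1 in R 4.3.3: a mean per group over all 12 arrays, eBayes with trend and robust estimation, 6 residual and a median of 5.09 prior degrees of freedom, Benjamini-Hochberg adjustment over the 6159. On simulated arrays with independent noise and changes of 2 (log2) in 200 of the 6159 probe sets, the fit recovered 178 and made 9 false calls. Those changes were larger than the called ones of the members, and same-numbered arrays were not correlated there. The simulation thus does not measure how well smaller changes are found in these data. Where the dimmer side was below the floor on all its arrays, those arrays were set to the floor before log2 means were subtracted, and the result is written "at least N-fold". The number of arrays limits precision.

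Deviations of same-numbered arrays from their group means correlated at 0.1065 to 0.4443 over the 15 pairs of groups. This check is the basis for the counts of pairs and for the replicate block. The main fit, which gave the standard errors and calls, did not include the replicate number. With the block, 2953 in place of 2420 of the 6159 probe sets were called in the mean culture effect. The replicate block, the offset, a hard floor, the filter, quantile normalization, the samples fitted, each array and the 3 arrays of high Gapdh ratio were varied.

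The members and lists were chosen with earlier results of these data known. Named genes were all members, up to 4 called genes of lowest p per list in the mean culture effect and up to 2 per subset comparison, and the 5 genes most correlated with Hspa5. Dnajc3, Asns, Psat1, Creld2, Erp44, Ppib, Rpn1, Sec61a1, Ssr3 and the genes called only with the block were named after their values were seen, and the fits of the list genes with the block and without the 3 arrays were likewise added then. Python 3.11.15 with pandas 2.3.3, numpy 2.4.6 and matplotlib 3.10.9 prepared tables and figures.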

Additional observations from a re-analysis of the deposited data

How the results depend on the processing

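With 2 arrays per group, single arrays weigh heavily, and the number of the 11 probe sets called ran from 1 to 5 in the mean culture effect when each array was left out in turn. The same ranges were 0 to 4 for the culture effect in CD4+ cells and for cultured CD8+ minus CD4+, 0 to 1 for cultured CD8+ minus DN, cultured DN minus CD4+ and the difference in culture effect between CD8+ and CD4+ cells, 0 to 2 for CD8+ against the other arrays, and 0 to 0 for the other comparisons. Without the 3 arrays of high Gapdh ratio, 6 in place of 3 were called in the mean culture effect and 2 in place of 1 for CD8+ against the other arrays. With the 2 groups compared alone, 0 in place of 1 were called for culture in CD4+ cells, a fit with fewer samples. The mean culture effect uses all 6 groups, so it has no such fit. Values that turned direction when an array was left out ran from -0.109 to 0.346 (Canx 160180_at) and -0.329 to 1.457 (Pdia6 94208_at) in the mean culture effect. They ran from -0.364 to 1.148 (Hsp90b1), -4.034 to 1.323 (Pdia6 94208_at) and -2.199 to 1.253 (Pdia6 94209_g_at) for culture in CD4+ cells, and from -0.009 to 1.503 for Hsp90b1 in cultured CD8+ minus CD4+. Without the 3 arrays, these last 3 comparisons gave 1.323, 1.253 and -0.009 for Pdia6 94208_at, Pdia6 94209_g_at and Hsp90b1. Ddit3 turned to 0.046 with a hard floor. The replicate block gave Atf4 an adjusted p of 0.045 and changed no other call among the 11 tested probe sets. Over all probe sets, the block called 1786 in place of 1133 (culture, CD4+), 1039 in place of 610 (culture, DN), 192 in place of 122 (fresh CD8+ minus CD4+) and 128 in place of 80 (cultured CD8+ minus DN). The 2 groups compared alone gave 254 and 1178 for culture in CD4+ and DN cells, 75 for fresh CD8+ minus CD4+, 15 for fresh DN minus CD4+, and 20 in place of 141 and 30 in place of 80 for cultured CD8+ minus CD4+ and minus DN. A hard floor gave 206 and 134 in place of 122 and 88 for fresh CD8+ minus CD4+ and minus DN, and 1 in place of 0 for cultured DN minus CD4+. Without the 3 arrays the counts were 991 in place of 501 (culture, CD8+), 189 and 155 (fresh CD8+ minus CD4+ and minus DN), 317 and 210 (the same, cultured), and 629 in place of 383 (CD8+ against the others), with 7, 1 and 2 in place of 0 in the differences in culture effect and 2 and 3 in place of 0 for DN minus CD4+, fresh and cultured. Leaving out each array gave 1699 to 3131 for the mean culture effect and 306 to 2115, 130 to 770 and 90 to 966 for culture in CD4+, CD8+ and DN cells. It gave 26 to 202 and 8 to 123 for fresh CD8+ minus CD4+ and minus DN, 28 to 551, 5 to 162 and 0 to 199 for cultured CD8+ minus CD4+, CD8+ minus DN and DN minus CD4+, 0 to 162, 0 to 3 and 0 to 72 for the differences in culture effect (CD8+ minus CD4+, CD8+ minus DN, DN minus CD4+), and 193 to 600 for CD8+ against the others. The cause of these shifts was not tested. Over the settings that leave out no single array, 267 values of named probe sets kept direction and side of the threshold, 6 gained a call, 6 lost one and 4 turned, those named above among them. Calr and Pdia6 94207_at stayed too near the floor for any setting to measure.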

Other observations

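The 5 genes whose intensities were most correlated with Hspa5 over the 12 arrays were not ER chaperones. They were Socs1 (r = 0.931), Sowahc (0.930), Agfg1 (0.919), Tgoln1 (0.917) and Ndel1 (0.916), over arrays that share the split into cultured and fresh. Socs1, the inhibitor of cytokine receptor signalling, read 225.3 to 1109.3 in cultured and 28 to 117.9 in fresh cells, which do not overlap, and was higher by 2.80 ± 0.33 (adjusted p = 0.000104). Tgoln1, a protein of the trans-Golgi network, read 873.3 to 1532.2 in cultured and 281.6 to 613.1 in fresh cells and was higher by 1.60 ± 0.19 (adjusted p = 0.000125). Among the 10 genes, Xbp1 followed Hspa5 most closely (r = 0.843), and Pdia3 and Hsp90b1 had r = 0.721.

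The ERSE stood in the windows of 37 of 27025 genes with a RefSeq window, and 9 of them were tested on the array: Canx, Creld2, Dnajc3, Ero1b, Hsp90b1, Hspa5, Pan2, Pdia6 and Ptgdr2. In the mean culture effect 2 of these were called higher (Canx and Hspa5) and 2 lower (Dnajc3 and Pan2), against 16.1% and 24.3% of all genes tested. The call of Dnajc3 ended with the 3 arrays of high Gapdh ratio left out (adjusted p = 0.0831). Of the other lists, 3 of 24 chaperones and folding enzymes with a window held the element (Creld2, Dnajc3 and Ero1b), as did 2 of 16 degradation genes (Derl3 and Syvn1) and 0 of the other lists.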
